A study of Mus musculus with 3 samples.

Results

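The 7 genes described here, *Pax3*, *Pax7*, *Myf5*, *Myod1*, *Myog*, *Myf6* and *Msc*, encode the transcription factors that set up skeletal muscle, and they were taken by name from the 19165 genes of a single-cell expression table of mouse back skin. The table holds 3 droplet libraries of dorsal skin of male C57BL/6 fetuses or pups, for which no allele or treatment is named, with 5962 cells at E13.5 (E, embryonic day), 5208 cells at E16.5 and 5065 cells at birth (P0). The study used them to follow the dermal and epithelial lineages of the hair follicle, so the muscle cells are cells that came along with the dissected skin. Every cell of the table passes the minimum of detected genes that the study gives. The table holds more cells at each stage than the study states that it kept, and which ones it left out is not known here, so shares of cells are those of the table. Skin of several animals was pooled for each library, E13.5 and E16.5 skin was digested with 0.25% trypsin for 5 min and P0 skin with 2 mg/ml collagenase IV for 30 min, both at 37 °C. With 1 library at each stage there was no replicate, no difference was tested, and stage, digestion and library cannot be told apart. The libraries held 53334740, 66239195 and 46599806 unique molecular identifiers (UMIs, one for each captured RNA molecule), and the median cell held 7066.5, 11021 and 6797 UMIs at E13.5, E16.5 and P0. Levels below are CPM, the UMIs of a gene summed over a group of cells and scaled so that all genes together sum to 1000000. All intervals are 95% intervals that cover counting error only. They are exact for levels (Poisson) and for shares of cells and ratios of UMIs (binomial). Those of log2 ratios are normal approximations from the Poisson counts.

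*Pax3* and *Pax7* are paired-box factors that mark muscle progenitors, and *Pax3* also acts in the neural crest, in melanocyte and Schwann cell precursors and in the dorsal neural tube. *Myf5* and *Myod1* are the basic helix-loop-helix (bHLH) factors that commit a progenitor to the muscle fate, *Myog* drives the committed myoblast into differentiation, and *Myf6* encodes the last of the 4 myogenic bHLH factors, MRF4. *Msc* encodes musculin, a bHLH repressor of the same target sites. These bHLH factors bind the E-box, CANNTG, as dimers with the E proteins, and Id proteins hold such dimers off DNA.

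In the annotation of the build the study aligned to (mm10, GRCm38), *Pax3* lies on the minus strand of chr1:78101267-78197134 and *Pax7* on the minus strand of chr4:139737062-139833528. *Myf5* (chr10:107482908-107486134) and *Myf6* (chr10:107492853-107494737) are neighbours on the minus strand, separated by 6718 bases. *Myod1* lies on the plus strand of chr7:46376474-46379099, *Myog* on the plus strand of chr1:134289989-134292548, and *Msc* on the minus strand of chr1:14753346-14755992, where it overlaps the antisense gene Gm9947, so reads of the pair cannot be told apart without the strand setting of the count, which is not given in the sources used here. The upstream sequences of *Myog* and *Myf5* are shown because these genes fell in the opposite sets described below. Each is the stretch directly before the annotated start, taken from RefSeq promoter windows on GRCm38.p6 (chr1:134289754-134289988, plus strand, for *Myog*, and chr10:107486135-107486384, minus strand, for *Myf5*), written 5′ to 3′ with every CANNTG in capitals.
Myog: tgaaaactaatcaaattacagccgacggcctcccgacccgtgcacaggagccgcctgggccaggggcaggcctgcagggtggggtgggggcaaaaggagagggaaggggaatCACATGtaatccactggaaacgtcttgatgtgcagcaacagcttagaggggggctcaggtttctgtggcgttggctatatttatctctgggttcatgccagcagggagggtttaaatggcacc
Myf5: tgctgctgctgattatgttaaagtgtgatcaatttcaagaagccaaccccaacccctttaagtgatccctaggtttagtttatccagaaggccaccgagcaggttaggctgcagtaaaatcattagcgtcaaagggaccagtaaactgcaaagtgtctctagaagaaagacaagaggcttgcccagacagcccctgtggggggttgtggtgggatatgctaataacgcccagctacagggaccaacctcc
The *Myog* stretch of 235 bases held 1 match, CACATG, from 123 to 118 bases before the start, and the *Myf5* stretch of 250 bases held 0. CANNTG reads the same on both strands, and at least 1 match was present in 66.2% of all 32851 RefSeq promoter windows of 250 bases, so a match or its lack is a description of these letters alone. Windows were given for 3 of the 7 genes, and that of *Pax7* is not shown because it lies within the annotated gene.

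Cells were clustered within each stage with the 7 genes left out, and a class was named from marker lists that hold none of them. The muscle-like class counted 521 of the 5962 cells of E13.5 (8.74%, 8.03 to 9.48%), 31 of the 5208 cells of E16.5 (0.595%, 0.405 to 0.844%) and 0 of the 5065 cells of P0, which by counting alone allows a share of up to 0.0592% (a count of 0 is taken to allow 3). Classes were named by whole cluster, and the smallest P0 cluster held 37 cells. This limit therefore does not cover muscle cells that fell within other clusters. Because these lists named the class, their level in it is a description and no check of the label. The summed level of 17 contractile and fusion genes (the myocyte list, with *Actc1*, *Ttn* and *Mylpf*) was 4147 CPM in muscle-like cells of E13.5 and 110 to 541 CPM in the other classes, and at E16.5 it was 3846 CPM against 12.3 to 58.4 CPM. At P0 the classes held 15.1 to 131 CPM of that list, and no cluster was named from it. In the E13.5 muscle-like class 225 of the 521 cells held more than 1 UMI of 15 defining genes of other lineages. Whether these UMIs came from free RNA or from joined cells was not tested. Results are therefore also given for the other 296 cells where they moved. Barcodes shared between libraries numbered 44 (E13.5 and E16.5), 41 (E13.5 and P0) and 32 (E16.5 and P0).

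In muscle-like cells of E13.5, 5 of the 6 members with at least 50 UMIs in the comparison were more than 2-fold higher than in all other cells, and none was 2-fold lower, against 1.49% higher and 3.29% lower of the 13665 genes held to the same rule. *Pax7* reached 47.4 CPM (269 UMIs) in muscle-like cells and 3.31 CPM in the others, a log2 ratio of 2.11 (1.96 to 2.26) with 10 CPM added to both sides as in all ratios here. *Myf5* was at 46.2 against 4.76 CPM, a log2 ratio of 1.93 (1.77 to 2.08), and *Myod1* at 310 against 10.2 CPM, a log2 ratio of 3.99 (3.90 to 4.08). The determination factor *Myod1* thus stood further above the rest of the skin than *Myf5*. *Myog* had the widest separation, with 1064 against 29.9 CPM and a log2 ratio of 4.75 (4.68 to 4.82). *Msc* was at 316 against 21.6 CPM (3.37, 3.28 to 3.45). *Pax3* went the other way, with 24 UMIs and 4.23 CPM in muscle-like cells and 12.5 CPM elsewhere. It counts as less than 2-fold lower only because of the 10 CPM added. *Myf6*, the MRF4 gene, was close to undetected, with 9 UMIs in the whole E13.5 library, 5 of them in muscle-like cells, and 0 UMIs at E16.5 and at P0, where 3 UMIs would be 0.0453 and 0.0644 CPM.

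**Figure D1:**
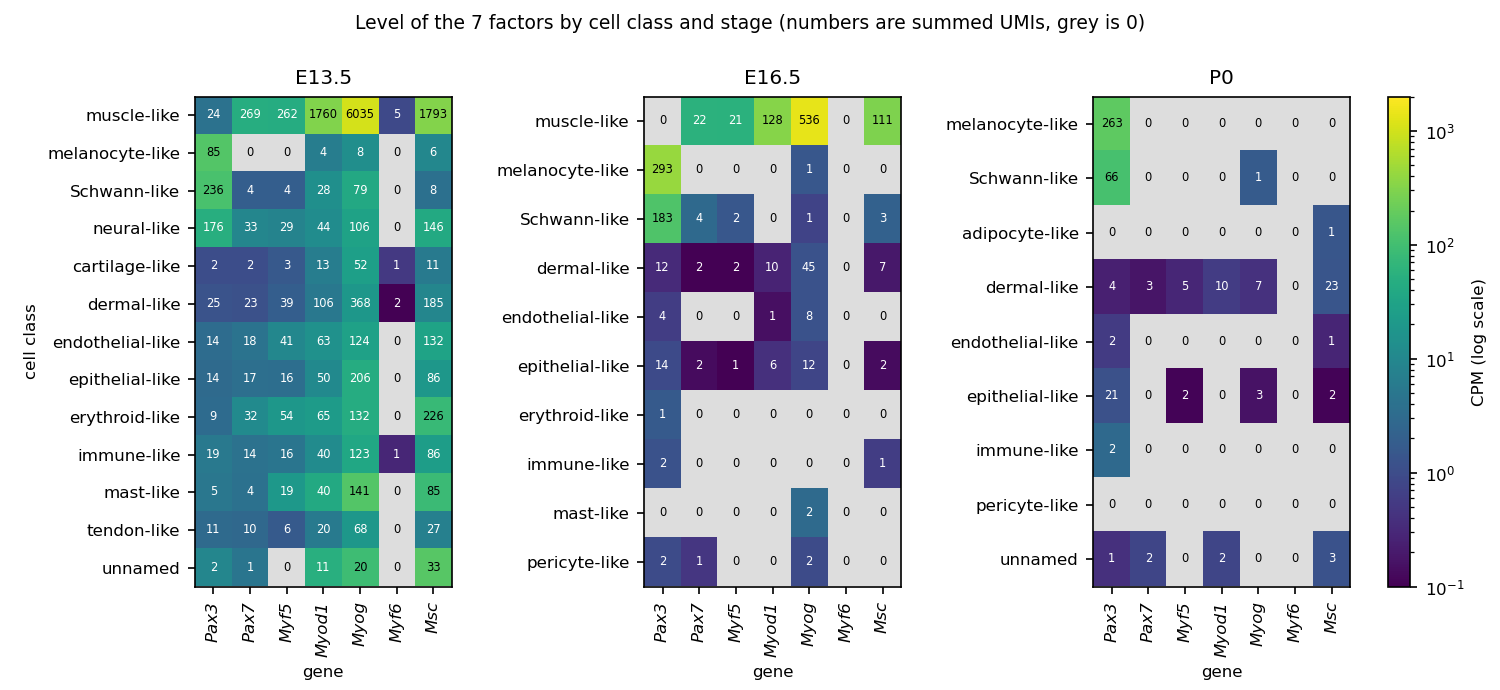
Level of each of the 7 genes in every cell class of the E13.5, E16.5 and P0 libraries, in CPM on a logarithmic colour scale with the summed UMIs printed in each square, and grey for 0. *Myog* is at 1064 CPM in E13.5 and 1398 CPM in E16.5 muscle-like cells, and *Pax3* is highest in melanocyte-like and Schwann-like cells at all 3 stages.

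At E16.5 the muscle-like class was small but held most of what was left. It carried 22 of 31 *Pax7* UMIs, 21 of 26 *Myf5* UMIs, 128 of 145 *Myod1* UMIs, 536 of 607 *Myog* UMIs and 111 of 124 *Msc* UMIs of the library. Of the 4 members with at least 50 UMIs, 3 were more than 2-fold higher in muscle-like cells and none was 2-fold lower, against 2.16% higher and 7.84% lower of the 13613 genes read in this way. *Myod1* was at 334 CPM against 0.258 CPM elsewhere (log2 ratio 5.07, 4.82 to 5.31), *Myog* at 1398 against 1.08 CPM and *Msc* at 290 against 0.197 CPM. *Pax7* (57.4 CPM) and *Myf5* (54.8 CPM) were too low in number of UMIs to be read in this way. *Pax3* had 0 UMIs in the 31 cells, which, with a count of 0 taken to allow 3, allows up to 9.68% of the cells to hold one at this depth. The 10 CPM added keeps this 0 within 2-fold of the 7.71 CPM of *Pax3* in the whole E16.5 library.

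Within muscle-like cells the levels of the factors were close at E13.5 and E16.5, while such cells were 8.74% of the first library and 0.595% of the second. None of the 5 members compared differed by 2-fold between the stages, where 1.37% of 8349 genes were higher and 4.3% lower at E16.5. *Pax7* differed by a log2 ratio of 0.23 (−0.30 to 0.76), *Myf5* by 0.21 (−0.34 to 0.75), *Myod1* by 0.10 (−0.15 to 0.35) and *Msc* by −0.12 (−0.39 to 0.15), all within counting error. The class was not made up alike at the 2 stages, with 2 progenitor-like clusters and 1 myocyte-like cluster at E13.5 and 1 cluster named from the myocyte list at E16.5, so these means compare different mixtures. *Myog* was higher at E16.5 by a log2 ratio of 0.39 (0.26 to 0.52), beyond counting error but less than 2-fold. Apart from *Pax3*, few UMIs of the members were left at P0, where the library held 5 UMIs of *Pax7*, 7 of *Myf5*, 12 of *Myod1*, 11 of *Myog* and 30 of *Msc*.

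A few P0 cells still held several of the factors. In the whole P0 library 27 cells (0.533%) had a UMI of any of the 6 members other than *Pax3*, and 6 cells had UMIs of at least 2 of them. These 6 cells were chosen after their values were seen, and 5 of them fell in dermal-like clusters and 1 in an unnamed cluster. The clearest was a dermal-like cell of 6615 UMIs with 2 *Pax7*, 6 *Myod1* and 4 *Msc* UMIs and 0 UMIs of the myocyte list. Another, of 5720 UMIs, held 1 *Pax7*, 1 *Myf5* and 7 *Msc* UMIs. The 6 cells had 0 UMIs of *Myog* among them and 0 to 4 UMIs each of the myocyte list.

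*Pax3* followed a pattern of its own, outside muscle. Melanocyte-like, Schwann-like and neural-like cells together held 79.9% of its 622 UMIs at E13.5, and melanocyte-like and Schwann-like cells held 93.2% of 511 UMIs at E16.5 and 91.6% of 359 UMIs at P0. In melanocyte-like cells of E13.5 it reached 140 CPM, a log2 ratio to all other cells of 2.89 (2.60 to 3.18), where 0.959% of genes were higher by 2-fold. The E16.5 level was 438 CPM with a ratio of 5.07 (4.90 to 5.24), where 2.42% of genes were higher, and that of P0 was 169 CPM with a ratio of 3.88 (3.71 to 4.06), where 1.48% were higher. Its level in these pigment cells was thus highest at E16.5. All 54 melanocyte-like cells of E16.5 held at least 1 *Pax3* UMI at full depth. With a minimum of 2500 genes a cell the E13.5 ratio was 3.72, and with likely doublets and the cells with most UMIs left out the P0 ratio was 4.53.

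Schwann-like cells, the glia of the skin's nerves, held *Pax3* at levels of 116, 133 and 112 CPM in the order of the stages. The log2 ratios to all other cells were 2.84, 3.24 and 2.90, where 1.84%, 3.66% and 5.2% of genes were higher. The melanocyte-like level stood above the Schwann-like level beyond the intervals at E16.5 and P0, but at E13.5 the 2 classes did not differ beyond them. Neural-like cells were found at E13.5 with *Pax3* at 50.01 CPM (log2 ratio 1.66, where 4.36% of genes were higher), and 171 of their 176 UMIs came from 1 cluster of 84 cells led by genes of neural progenitors such as *Fabp7*, *Sox2* and *Hes5*. That cluster also held 18 of the 33 *Pax7* UMIs of neural-like cells. In no class other than these 3 and the 28 cells of an unnamed cluster did *Pax3* exceed 5.57 CPM at E13.5.

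UMIs of the factors were spread widely through the other cells of the E13.5 library. Of 5441 cells outside the muscle-like class, 1613 (29.6%) held a UMI of at least 1 of the 6 members other than *Pax3* and 126 (2.32%) held at least 3 of the 6, while at E16.5 the corresponding numbers were 109 (2.11%) and 0 of 5177. To compare shares at equal depth, each cell was thinned at random to 3500 UMIs. Endothelial-like cells, which should lack these genes, then held a UMI of *Myog* in 11.03%, of *Msc* in 10.8%, of *Myod1* in 3.92%, of *Myf5* in 3.19% and of *Pax7* in 1.23% of 408 cells. Muscle-like cells held them in 46.8%, 45.1%, 42.2%, 14.6% and 10.4% of 521 cells. Median depths before thinning were 7368.5 and 6620 UMIs, and the unthinned shares were 22.5% and 56.4% for *Myog* and 16.9% and 57.6% for *Msc*. Of the endothelial-like UMIs, 36 of 41 for *Myf5*, 38 of 63 for *Myod1* and 83 of 132 for *Msc* came from 1 cluster of 65 cells, and without it the thinned shares were 9.62% for *Myog*, 7.29% for *Msc*, 2.62% for *Myod1* and 0.583% for both *Myf5* and *Pax7*. The choice to leave it out was made after seeing the data. Over the named classes outside muscle, thinned shares ran from 7.14% (melanocyte-like) to 25.2% (mast-like) for *Myog*. For *Msc* they ran from 1.45% (tendon-like) to 25.2% (mast-like). The 28 cells of the unnamed cluster held them in 21.4% and 39.3%. *Pax3*, with 1.96% in endothelial-like and 1.54% in muscle-like cells, was not above this class in muscle-like cells. Its level of 4.23 CPM (2.71 to 6.30) in muscle-like cells was within the 3.08 to 5.57 CPM of endothelial-like, epithelial-like, erythroid-like, tendon-like, mast-like and other immune-like cells, but above the 1.26 CPM (0.815 to 1.86) of dermal-like cells.

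The UMIs outside muscle did not carry the factors in 1 fixed ratio. *Msc* UMIs over *Myog* UMIs came to 0.297 (0.282 to 0.313) in muscle-like cells, 1.71 (1.38 to 2.14) in erythroid-like cells, 1.38 (1.07 to 1.79) in neural-like cells, 1.06 (0.827 to 1.37) in endothelial-like cells and 0.101 (0.0423 to 0.209) in Schwann-like cells. The other named classes lay closer together, from 0.212 (0.0995 to 0.410) in cartilage-like to 0.75 (0.214 to 2.46) in melanocyte-like cells. In endothelial-like and neural-like cells 1 cluster decided the ratio: it was 0.533 (0.369 to 0.761) in endothelial-like cells without their cluster of most *Msc* UMIs and 0.25 (0.0995 to 0.554) in neural-like cells without theirs. The non-muscle cluster with the highest summed level of the 6 members was that of 65 endothelial-like cells, led by *Ccl21a*, with *Myf5* as its second leading gene at 55.6 CPM (36 UMIs). Its *Msc* level was 128 CPM, its *Myod1* level 58.7 CPM and its myocyte list 565 CPM, so the contractile genes were raised there with the factors. The part of free RNA or of joined cells in these values was not tested.

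Sub-clustering divided the E13.5 muscle-like cells into 246 progenitor-like cells, named from 7 genes such as *Cdh15* and *Fgfr4*, 190 myocyte-like cells and 85 unnamed cells in which markers of epithelial or neural cells stood out. The factors split into opposite sets between the first 2. Of 5 members compared, *Myod1* and *Myog* were more than 2-fold higher in myocyte-like cells, where 2.74% of 7857 genes were higher, and *Pax7*, *Myf5* and *Msc* were more than 2-fold lower, where 0.802% were lower. *Pax7* was at 79.4 CPM in progenitor-like and 6.25 CPM in myocyte-like cells (log2 ratio −2.46, −2.80 to −2.12) and *Myf5* at 73.2 and 11.1 CPM (−1.98, −2.33 to −1.63). *Msc* was at 511 and 70.2 CPM (−2.70, −2.92 to −2.48), an interval that overlapped that of *Pax7*. Without the added 10 CPM the ratio was widest for *Pax7*. *Myod1* was already present at 166 CPM in progenitor-like cells and stood at 562 CPM in myocyte-like cells (1.70, 1.56 to 1.85). *Myog* was at 131 and 2512 CPM (4.16, 4.03 to 4.30). At equal depth *Myog* was found in 22.8% and 82.6% of the cells and *Msc* in 67.5% and 17.9%, and without thinning in 37.4% and 88.9% and in 81.7% and 28.4%. Mast-like cells, outside muscle, held each of these 2 genes in 25.2% at equal depth, above the 22.8% and the 17.9%. *Pax3*, at 4.27 and 4.33 CPM, did not differ beyond counting error.

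**Figure D2:**
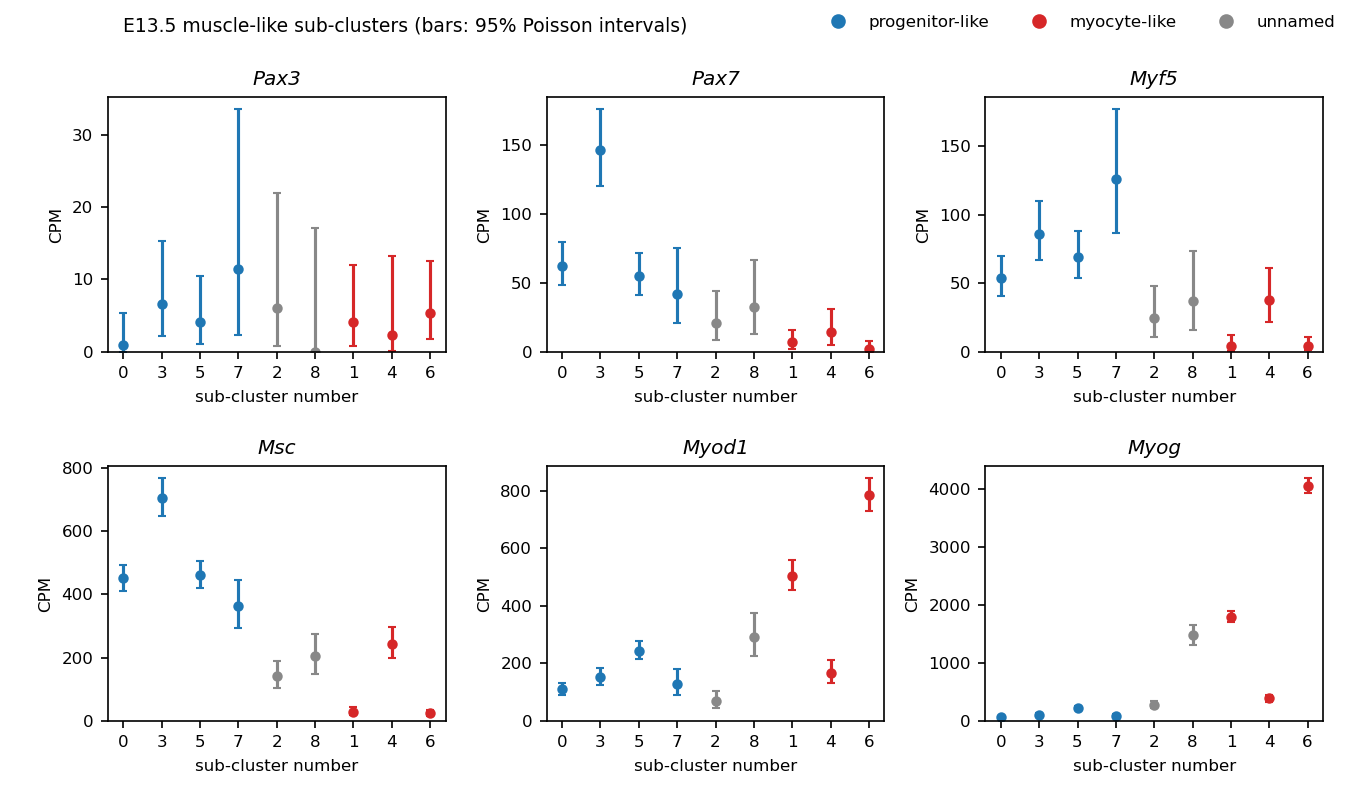
Level of 6 members (*Myf6* left out) in each numbered sub-cluster of E13.5 muscle-like cells, in CPM with exact 95% Poisson intervals, coloured by name. The 4 progenitor-like sub-clusters hold *Msc* at 363 to 705 CPM and *Myog* at 73.1 to 223 CPM, and the 3 myocyte-like ones hold *Myog* at 388 to 4051 CPM.

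The sub-clusters varied among themselves within these sets. Among the 4 progenitor-like sub-clusters *Pax7* ranged from 42.1 to 146 CPM, *Myf5* from 53.8 to 126 CPM and *Msc* from 363 to 705 CPM. The highest *Pax7* and *Msc* levels were in the same sub-cluster of 57 cells, while the highest *Myf5* level was in another of 44 cells. Among the 3 myocyte-like sub-clusters *Myog* ranged from 388 to 4051 CPM and *Myod1* from 168 to 786 CPM. The lowest of both came with the highest *Msc* (244 CPM), in 56 cells led by *Car3*, and the highest of both in 49 cells led by *Myog*, *Myl1* and *Mylpf*. An unnamed sub-cluster of 25 cells had *Myog* among its leading genes at 1473 CPM together with all 8 neural markers.

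To order the cells without using the factors, the 521 E13.5 muscle-like cells were ranked by the summed CPM of the myocyte list and cut into 5 bins of 104 or 105 cells. From the lowest to the highest bin, *Pax7* stood at 121, 59.6, 55.4, 26.9 and 2.19 CPM. *Myf5* held its level for longer, at 80.2, 60.7, 69.0, 33.9 and 5.84 CPM. *Msc* ran from 625 through 390, 465 and 206 to 35.8 CPM. *Pax7* was thus lower by the second bin, and as a ratio the step to the highest bin was the largest for all 3 genes. In the opposite direction *Myod1* stood at 58.5, 139, 149, 366 and 678 CPM and *Myog* at 33.6, 79.5, 181, 778 and 3436 CPM. Both genes more than doubled between the first 2 bins. As a ratio the largest step of *Myod1* was from 149 to 366 CPM, and the largest steps of *Myog* were the last 2. The 33.6 CPM of *Myog* in the lowest bin was within the 13.2 (melanocyte-like) to 144 CPM (mast-like) of named classes outside muscle. The log2 ratio of the highest to the lowest bin was 6.30 for *Myog* and −3.80 for *Msc*, and with 3 bins it was 5.36 and −2.35. The lowest bin held 61 progenitor-like, 12 myocyte-like and 32 unnamed cells, so its levels are those of a mixture. The top bin held 93 myocyte-like, 3 progenitor-like and 8 unnamed cells, and its summed level of 9 cell cycle genes was 1105 CPM against 1672 to 1883 CPM in the other bins. The bins are ranges of a continuous score, and 137 cells (26.3%) lay within 10% of an edge.

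**Figure D3:**
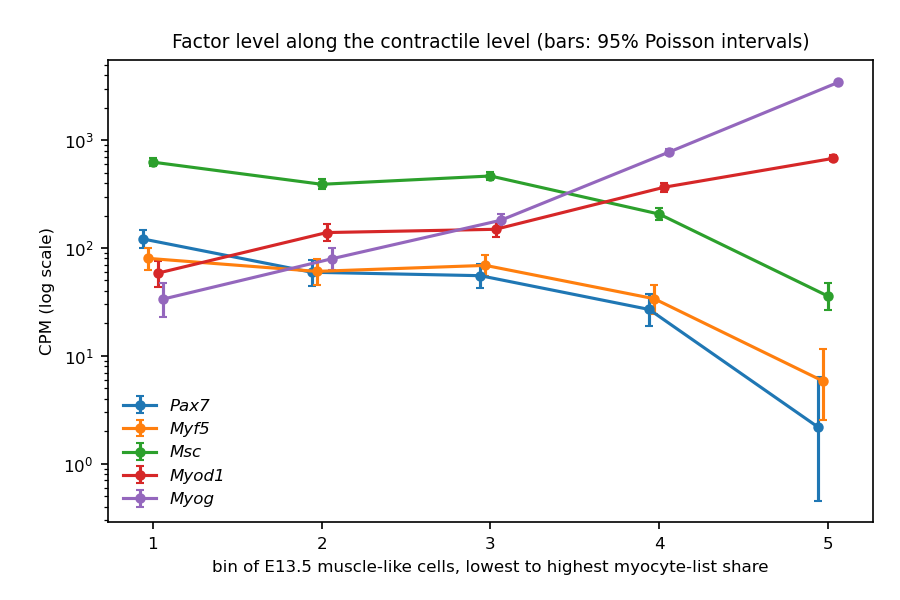
Level of 5 members in 5 bins of E13.5 muscle-like cells ordered by the summed level of 17 contractile and fusion genes (lowest bin at left), in CPM on a log axis with exact 95% Poisson intervals. *Myog* is at 33.6 CPM in the lowest and 3436 CPM in the highest bin, and *Msc* at 625 and 35.8 CPM.

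Co-expression was read in single E13.5 muscle-like cells thinned to 3500 UMIs, where a UMI of *Myog* was found in 244, of *Msc* in 235, of *Myod1* in 220, of *Myf5* in 76, of *Pax7* in 54, of *Pax3* in 8 and of *Myf6* in 2 of 521 cells. At least 2 members were found in 296 cells (56.8%), 1 member in 186 cells and none in 39 cells. Only 3 cells held 4. At full depth the share with at least 2 was 79.5%, so cells without a UMI at this depth cannot be taken to lack the gene. The commonest combination was *Myod1* with *Myog* and no other member (123 cells, 23.6%), followed by *Msc* alone (93 cells) and *Myog* alone (61 cells).

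*Myod1* and *Myog* occurred together. *Myog* was found in 70.0% (63.5 to 76.0%) of cells with *Myod1* and in 29.9% (24.8 to 35.4%) of cells without it. The same held within each sub-group, with 34.6% against 17.3% in progenitor-like and 93.5% against 62.7% in myocyte-like cells. In the 296 cells with at most 1 UMI of other lineages, a selection made after seeing the data, the shares were 76.5% and 31.9%.

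*Msc* kept the opposite company in the class as a whole. It was found in 66.7% (52.5 to 78.9%) of cells with *Pax7* against 42.6% of those without, and in 60.5% (48.6 to 71.6%) of cells with *Myf5* against 42.5%. Among cells with *Myog* it was found in 18.4% (13.8 to 23.9%) against 68.6% (62.8 to 74.0%) of those without *Myog*. Within myocyte-like cells the shares were 7.64% and 66.7%, and within progenitor-like cells they lay closer, at 46.4% (33.0 to 60.3%) and 73.7% (66.8 to 79.8%). Named classes outside muscle held *Msc* in 1.45% (tendon-like) to 25.2% (mast-like) of thinned cells, a range that covers the 18.4% and the 7.64%. At full depth *Msc* was found in 39.8% of cells with *Myog* against 80.6% of those without. The higher shares of *Msc* beside *Pax7* and *Myf5* did not hold within progenitor-like cells, where *Msc* was found in 72.1% (56.3 to 84.7%) of cells with *Pax7* against 66.5% (59.6 to 73.0%) and in 60.7% (46.8 to 73.5%) of cells with *Myf5* against 69.5% (62.4 to 75.9%), both within counting error.

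How often *Pax7* met the other factors depended on the depth. In thinned cells *Myog* was found in 12.96% (5.37 to 24.9%) of cells with *Pax7* against 50.7% of those without, and *Myod1* in 14.8% (6.62 to 27.1%) against 45.4%. At full depth *Myog* was still found less often with *Pax7*, in 34.3% (26.4 to 42.9%) of 137 cells against 64.3% (59.3 to 69.1%), but *Myod1* was found in 60.6% (51.9 to 68.8%) against 62.2% (57.2 to 67.1%), within counting error. For *Myf5* in thinned cells, *Myod1* was found in 36.8% (26.1 to 48.7%) of its cells against 43.1% (38.5 to 47.9%) of the others, a difference within counting error, while *Myog* was found in 18.4% of its cells against 51.7%. Named classes outside muscle held *Myog* in 7.14% (melanocyte-like) to 25.2% (mast-like) of thinned cells. That range covers the 12.96% beside *Pax7* and the 18.4% beside *Myf5*, so these shares are not above stray UMIs. Cells with both *Pax7* and *Myf5* numbered 6, and *Myf5* was found in 11.1% (4.19 to 22.6%) of *Pax7* cells against 14.99% (11.9 to 18.6%) of the others. At full depth this turned, with both genes in 72 cells and *Myf5* in 52.6% (43.9 to 61.1%) of *Pax7* cells against 21.6% (17.6 to 26.1%). Full-depth shares mix cells of unequal depth, in which deeper cells hold more of every gene. These cells are of 1 library and are not replicates, and shares of *Pax7* and *Myf5* rest on few UMIs a cell, with at most 7 of either gene in any of the 521.

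**Figure D4:**
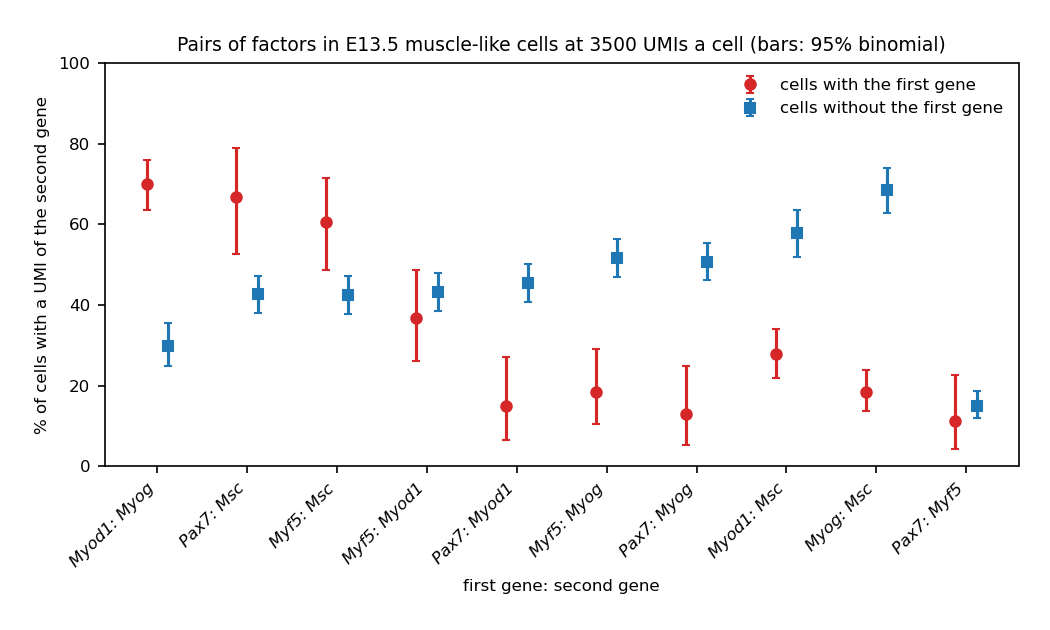
Share of E13.5 muscle-like cells (thinned to 3500 UMIs, 521 cells) with a UMI of one factor among cells with and cells without a UMI of another, in percent with exact 95% binomial intervals. *Myog* is found in 70.0% of cells with *Myod1* and 29.9% of cells without it, and *Msc* in 18.4% of cells with *Myog* and 68.6% of cells without it.

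The 31 muscle-like cells of E16.5 formed 1 cluster that expressed 17 of 17 myocyte markers. The sets were again opposed along the myocyte list, but some single cells held genes of both. Ordered by the myocyte list, the lower 15 cells (121 to 1308 CPM of the list) had 98 *Msc* UMIs in 13 cells and 3 *Myog* UMIs in 2 cells. The upper 16 cells (1820 to 41986 CPM) had 13 *Msc* UMIs in 7 cells and 533 *Myog* UMIs in 14 cells. *Myog* per cell thus ran from 0 to 2 in the lower cells and from 0 to 108, with a median of 33.5, in the upper ones. *Pax7* had 18 UMIs in 10 of the lower cells and 4 UMIs in 3 of the upper, and *Myf5* 18 UMIs in 8 and 3 UMIs in 2. *Myod1* was found on both sides, with 48 UMIs in 12 of the lower and 80 UMIs in 15 of the upper cells. All 10 cells with *Myf5* also held *Msc*, and 1 of these 10 held *Myog*, against 15 of the other 21. Of the 16 cells with *Myog*, 7 also held *Msc* and 4 also held *Pax7*, against 13 and 9 of the 15 without it. Depth was 8163 to 22033 UMIs (median 11390) in the lower and 6441 to 29354 UMIs (median 11397) in the upper cells.

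**Figure D5:**
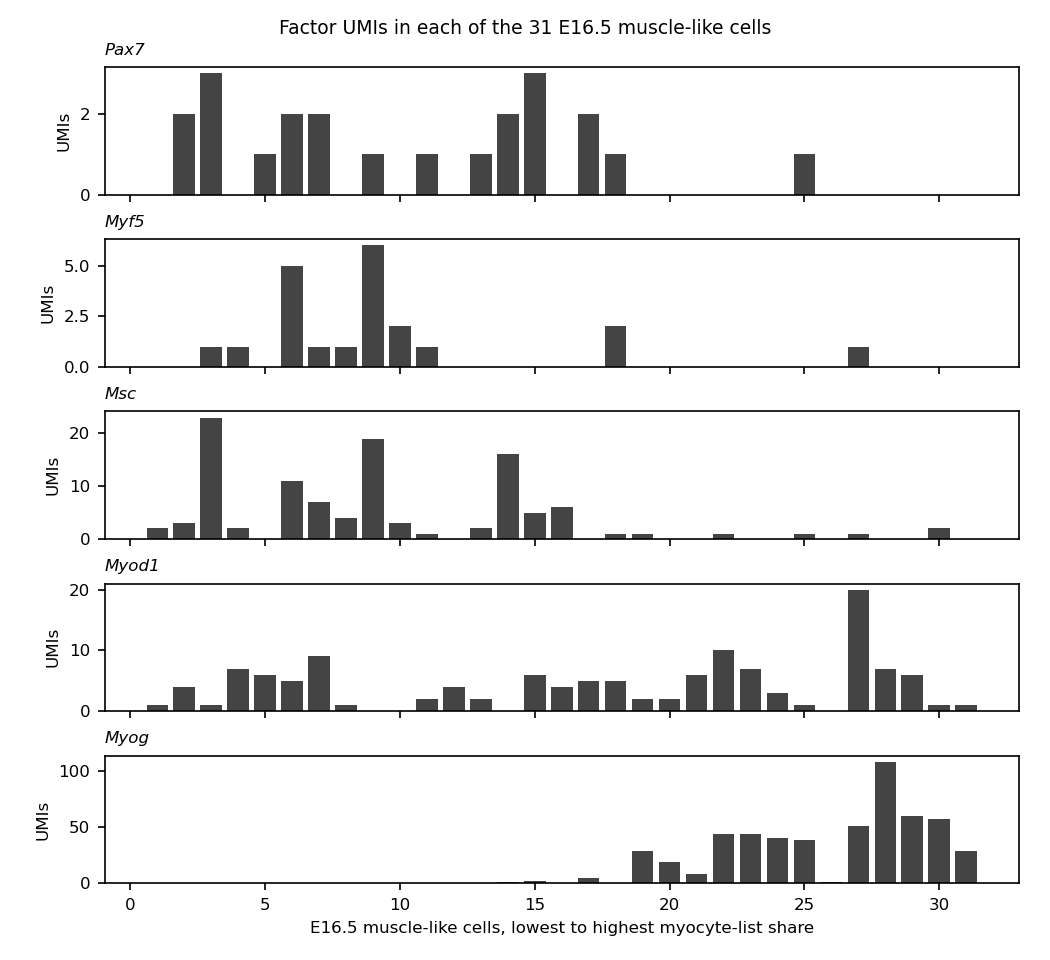
UMIs of 5 members in each of the 31 E16.5 muscle-like cells, ordered from left to right by the summed level of the myocyte list. *Myog* is at 0 to 2 UMIs in the lower 15 cells and reaches 108 UMIs in the upper 16, where *Msc* reaches 6 UMIs.

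Other genes of the pathway were taken from 5 lists. Of 11 upstream regulators compared at E13.5, 2 were more than 2-fold higher in muscle-like cells than in other cells, among them the homeobox gene *Lbx1* (log2 ratio 1.56), and the median of the list was 0.49 against −0.15 over all genes, of which 1.49% were higher and 3.29% lower. The 6 partners, E proteins and MEF2 factors that bind DNA with the myogenic factors, held none past 2-fold, with *Mef2c* at 0.77. Of 9 inhibitors, *Hey1* was higher (1.05) and *Twist1* (−1.67), *Id2* (−1.56) and *Mdfi* (−1.04) were lower. Of 13 targets 10 were higher, against the same 1.49% of all genes, with a median of 1.46. These included *Mymx*, the fusion peptide myomixer, listed under its older symbol Gm7325 (3.66), *Cdkn1a*, a cell cycle inhibitor (2.83), *Chrng*, the fetal acetylcholine receptor subunit (1.77), and *Dok7* of the nerve-muscle synapse (1.62). None of 9 cell cycle genes was past 2-fold.

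The same lists were compared in myocyte-like against progenitor-like cells, with the same limit. Of 12 targets 9 were higher, led by *Cdkn1a* (4.82), *Mymx* (4.31), *Smyd1* (2.49) and *Chrng* (2.43), with a list median of 1.97 against −0.06 over all genes, of which 2.74% were higher and 0.802% lower. Of 6 partners *Mef2c* (3.24) and *Mef2a* (1.74) were higher. The Notch effectors *Hey1* (−1.40) and *Heyl* (−1.30) were the 2 of 8 inhibitors that were lower, 1 of 9 cell cycle genes was lower (*Pcna*, −1.11, list median −0.65), and none of 6 upstream regulators was past 2-fold. At E16.5 against the other cells of that stage, 6 of 8 targets were higher (*Mymx* 4.41, *Cdkn1c* 3.17, *Dok7* 2.68, *Chrnb1* 2.65), as were 5 of 10 upstream regulators, while 3 of 9 inhibitors were lower, against 2.16% higher and 7.84% lower of all genes. Between E16.5 and E13.5 muscle-like cells, 3 of 12 targets were higher at the later stage (*Chrnb1* 1.04, *Dok7* 1.01 and *Cdkn1c* at the mark itself), *Dmrt2* of the upstream list was higher (1.13) and the inhibitor *Mdfi* was lower (−1.28), against 1.37% higher and 4.3% lower of all genes.

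Likeness of expression was described as Pearson's r of log levels over the 112 clusters of the 3 libraries, which share library and depth within a stage and are not independent. *Myod1* was most like *Cdh15* (0.98), *Vgll2* (0.97) and *Neb* (0.97), and *Myog* was most like *Actc1* (0.95), *Myod1* (0.94) and *Ttn* (0.93). *Msc*, *Myf5* and *Pax7* had each other and the homeobox gene *Pitx1* as their nearest genes, with 0.90 for *Myf5* and *Msc*, 0.86 for *Pax7* and *Myf5* and 0.90 for *Msc* and *Pitx1*. *Isl1* was the other gene near *Msc* (0.88). *Pax3* was most like *Igsf11* and the neural crest factor *Sox10* (both 0.88) and *Gjc3* (0.86). The 9 UMIs of *Myf6* were too few to give such a list.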

How the data were processed

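The table was deposited as the natural log of UMIs scaled to 10000 per cell plus 1. The authors aligned with Cell Ranger 2.2.0 to mm10 and kept cells by their number of detected genes. Whole UMIs were recovered from every value within 0.001, and 0 columns were left unused. Each stage was clustered with scanpy 1.11.5 and leidenalg 0.10.2 (Python 3.11.15) on 2000 variable genes without the 7 members, 30 principal components and 15 neighbours at resolution 2, and muscle-like cells were sub-clustered at resolution 1. A cluster was named from the list whose markers had the highest mean log2 ratio to the 25th percentile of the clusters, with at least 3 of them raised 2-fold. A cluster stayed unnamed where at least 2 of its 10 leading genes, and more than of its own class, marked another class, and erythroid-like clusters needed 3 markers among those 10. These last 2 rules were set after the clusters were seen. Scrublet marked 0 cells at E13.5, and was taken not to have worked there, 84 at E16.5 and 106 at P0. Marked cells were kept, and left out in an alternative.

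UMIs were summed per class, and log2 ratios add 10 CPM to both sides and were read for genes with at least 50 UMIs. More than 2-fold means past 1 on that log2 scale, a rule of size and not a test. Intervals are exact for levels, shares and ratios of UMIs (scipy 1.17.1), and normal approximations for log2 ratios. For shares each cell was thinned to 3500 UMIs, and 1 E16.5 cell was shallower. All 7 members are named, with up to 4 genes of each pathway list with the largest log2 ratio in a comparison, leading genes of muscle-like sub-groups and the 3 genes most like each member (Pearson's r of log2 of CPM plus 10). The leading genes of other clusters and *Mylpf* were named after their values were seen. Members and lists were chosen with earlier results of these data known. The steps were tested on simulated counts. Some single genes are not reported here.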

Additional observations from a re-analysis of the deposited data

Results flagged for a closer look

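*Mef2d*, a MEF2 partner of the myogenic factors, stood on opposite sides in muscle-like cells of the 2 fetal stages. Its log2 ratio to all other cells was 0.32 at E13.5 and −0.92 at E16.5, each beyond its counting interval, and the E16.5 value rests on 2 UMIs. The difference between the stages was not tested.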

How the results depend on the processing

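Of 379 values recomputed under 14 alternatives, 285 stayed within the spread of counting error, 94 moved and 0 reversed. The numbers of members more than 2-fold higher in muscle-like cells, or past 2-fold between stages or sub-groups, were the same under each alternative run for them. Members lower in muscle-like cells were not counted again, and with less than 10 CPM added *Pax3* can pass 2-fold lower. With the 7 members allowed among the variable genes, the E13.5 share of muscle-like cells was 9.63%. With a minimum of 2500 genes a cell, the *Pax3* log2 ratio was 3.72 in melanocyte-like and 3.24 in Schwann-like cells of E13.5 and 3.56 in melanocyte-like cells of P0, the *Myog* ratio between the outer bins was 6.93, and 61.5% of muscle-like cells held at least 2 members. With doublets and the cells of most UMIs left out, *Pax3* in melanocyte-like cells of P0 was 4.53, and the ratios between the outer bins were 6.72 for *Myog* and −4.50 for *Msc*; with 3 bins these were 5.36 and −2.35. At full depth 79.5% of cells held at least 2 members, *Msc* was found in 86.9% and *Myog* in 34.3% of cells with *Pax7*, and *Msc* in 39.8% of cells with *Myog*. Asking for at least 2 UMIs of a gene in the thinned cells, the same shares were 19.96%, 50%, 0% and 2.60%, and *Myog* was found in 78.2% of cells with *Myod1*. In cells with at most 1 UMI of other lineages, chosen after seeing the data, 61.5% held at least 2 members and *Myog* was found in 76.5% of cells with *Myod1*. Depth and cell number are set by these alternatives themselves, and no other cause was tested. No paired analysis was possible because each stage was 1 library.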
